A study of Bos taurus and Sus scrofa with 10 samples.

Results

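Transcripts of 10 genes of lipid storage and fatty acid metabolism were followed from the oocyte to the blastocyst in cattle (Bos taurus) and in pigs (Sus scrofa). The genes were chosen by name: PLIN2, PLIN3, ACACA, FASN, SCD, ACSL3, DGAT1, DGAT2, PNPLA2 and CPT1A. By exact symbol, 9 of the 10 were found among the 22845 entries of the cow table and 9 among the 21867 entries of the pig table, and 8 were in both. SCD in cow and PNPLA2 in pig were not analysed here. Each species had 5 groups (oocytes, embryos of 2-4 and of 8-16 cells, morulae and blastocysts), with 1 library of total RNA per group and no treatment named in the labels. No difference between stages therefore has a replicate check, and no p-value is given. The number of oocytes or embryos behind a library, and whether embryos came from the reproductive tract or from culture, are not given in the sources used here.

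Lipid droplets are stores of neutral lipid, mainly triacylglycerol, wrapped in a phospholipid layer and a protein coat. Fatty acids are built from acetyl-CoA in the cytosol, activated to acyl-CoA, and joined to glycerol for storage, or released by lipases and carried into mitochondria for oxidation. Oocytes of pig are known for their dark, lipid-rich cytoplasm, and those of cow also carry many droplets; this store is a known source of fuel and membrane lipid for the early embryo.

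Values are reads per 1000000 reads of a library (RPM), which compare 1 gene between stages of 1 species and are not divided by gene length, so levels of different genes are not set against each other. Read totals ran from 3002751 to 14182046 per library, the cow blastocyst library being the deepest. Intervals on RPM are 95% Wilson intervals from the read counts and cover counting error only, since amplified reads without molecular identifiers are not independent molecules. A count of 0 reads allows up to 3 reads, which is between 0.212 RPM (cow blastocyst) and 0.999 RPM (pig morula). A change is a difference of log2(RPM + 1), the later minus the earlier stage, and is smaller than the change in RPM where values are low. Genes were compared where either library had at least 1 RPM, and a gene is said to have risen or fallen at an absolute difference of 2 or more. Mitochondrial genes took between 2.74% and 30.2% of the reads in cow and between 6.06% and 18.6% in pig, with the highest shares in both blastocyst libraries, and a larger share lowers the RPM of all other genes. The 15 oocyte markers in cow summed to 10231 RPM in the oocyte library and 179 RPM in the blastocyst library, and the 14 in pig to 9864 and 39.7 RPM. In the cow blastocyst library DPPA3 alone gave 179 RPM, and 13 of the 15 markers had 0 reads. In the pig blastocyst library 8 of the 14 had 0 reads.

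From oocyte to blastocyst, FASN and CPT1A rose in both species, PLIN3 rose in cow, and PLIN2, SCD and DGAT1 rose in pig. ACSL3 fell in pig and was the only member with a fall of this size over the whole course in either species. In cow, 3 of 9 members changed, all upwards, where 40.2% of all compared genes changed, 21.8% upwards and 18.4% downwards. In pig, 6 of 9 members changed, 5 upwards, where 45.2% of all compared genes changed, 26.0% upwards and 19.2% downwards; pig DGAT2 had 0 reads at each stage and was not compared. The median change was 0.98 over the 9 cow members, against 0.18 over all cow genes compared. Over the 8 pig members compared it was 2.73, or 2.44 with values below 3 reads set to 3 reads, against 0.43 over all pig genes compared. The highest value lay in the blastocyst library for 7 of the 9 cow members and for 4 of the 8 pig members with reads, as it did for 27.6% of all cow genes and 32.6% of all pig genes with at least 1 RPM. For cow DGAT1, DGAT2, PNPLA2 and CPT1A the blastocyst interval overlapped that of the next highest library. It did so for none of the 4 pig members. In bulk RNA, fewer cells of a kind and less RNA per cell cannot be told apart.

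**Figure D1:**
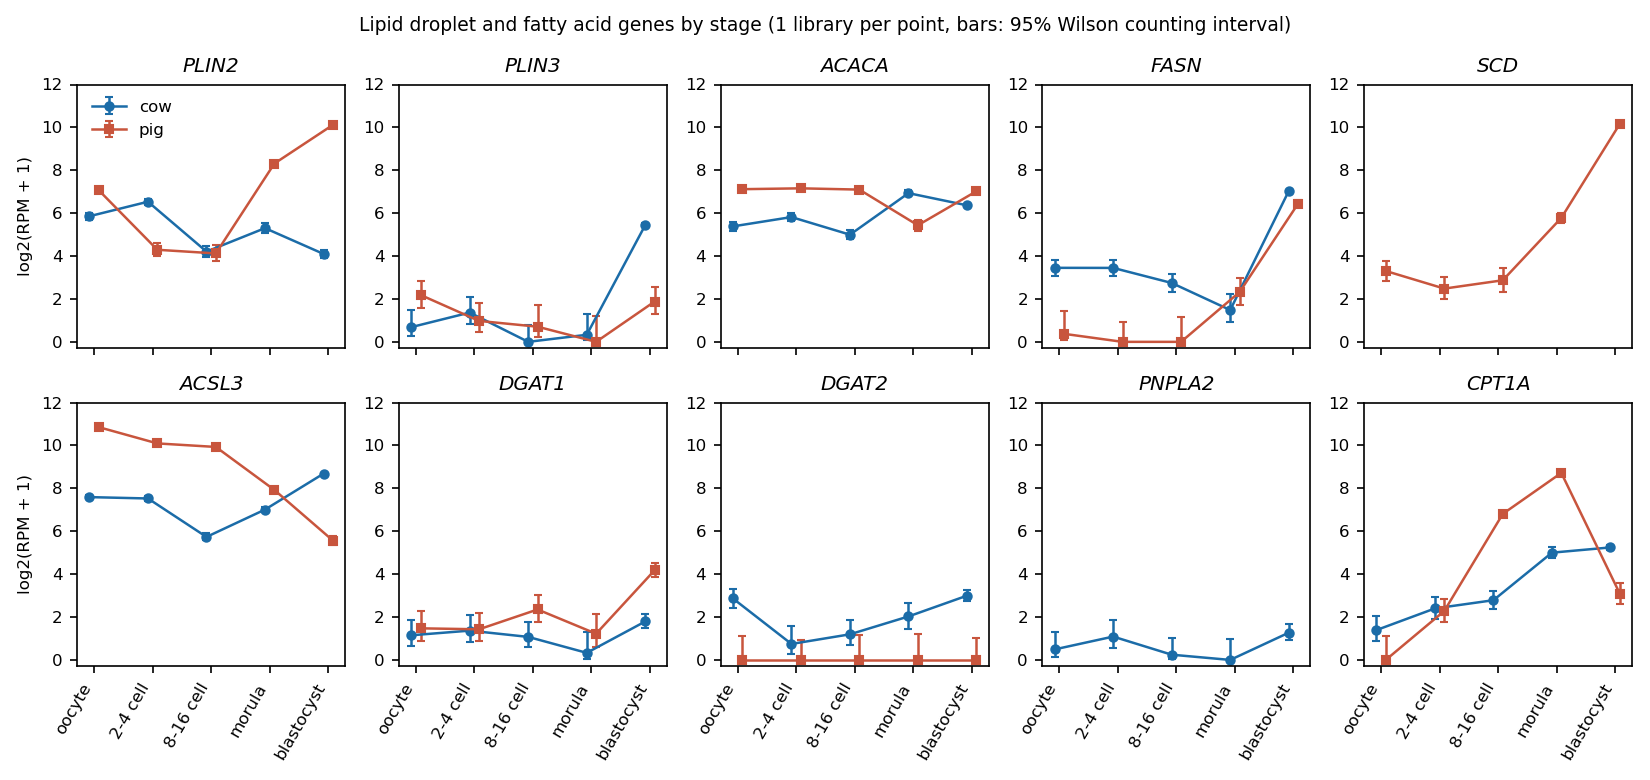
Level of each gene as log2(RPM + 1) at the 5 stages, cow in blue circles and pig in red squares, 1 library per point, with bars for the 95% Wilson counting interval; libraries with 0 reads are drawn at 0. The blastocyst lies below the oocyte for cow PLIN2 and pig ACSL3, and above it for pig PLIN2 and cow ACSL3. FASN climbs at the blastocyst in both species, and pig CPT1A peaks in the morula library at 421 RPM.

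PLIN2 encodes perilipin 2, the coat protein that covers droplets in most cells outside fat tissue. Cow PLIN2 stood at 57.0 RPM in the oocyte library, 91.7 at the 2-4 cell stage, 17.5 at the 8-16 cell stage, 38.5 in the morula and 16.1 RPM in the blastocyst. The level was thus highest at the 2-4 cell stage, and the intervals of the 8-16 cell and blastocyst libraries, the lowest, overlapped. Its fall from the 2-4 cell to the 8-16 cell stage, a difference of -2.33, lay near the threshold and was -1.98 with median-of-ratios scaling and also missed the threshold with quantile normalisation. From oocyte to blastocyst the cow difference was -1.76, a level 3.53-fold lower (95% interval of the ratio 2.95 to 4.22), short of the threshold.

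Pig PLIN2 took another course. It stood at 133 RPM in the oocyte library, 18.6 at the 2-4 cell stage, 16.4 at the 8-16 cell stage, 317 in the morula and 1109 RPM in the blastocyst. The transcript fell 7.14-fold (5.60 to 9.22) from the oocyte to the 2-4 cell stage, was level within counting error between the 2-4 cell and 8-16 cell libraries, and then rose 19.3-fold (14.6 to 26.1) into the morula. The morula and blastocyst libraries both lay above the oocyte library. The whole course was a rise of 3.05, or 8.35-fold (7.57 to 9.22). The gene lies on cow chromosome 8 from 25129168 to 25142901 (UMD3.1) and on pig chromosome 1 from 203683875 to 203713121 (Sscrofa11.1), both on the plus strand, and its span overlaps no other entry of either table.

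PLIN3, perilipin 3, is a coat protein that moves between the cytosol and young droplets. Cow PLIN3 had 3, 7, 0 and 1 reads in the oocyte, 2-4 cell, 8-16 cell and morula libraries and 604 reads in the blastocyst library, which is 42.6 RPM (39.3 to 46.1). Among the 4 earlier libraries, neighbouring levels in the order of height had overlapping intervals. The highest and the lowest did not: the 2-4 cell interval was 0.764 to 3.26 RPM and the 8-16 cell interval 0 to 0.707 RPM. The blastocyst library stood clear of all 4. The ratio of blastocyst to oocyte was 70.0, with an interval of 23.8 to 340.3 because the oocyte library held 3 reads, and the difference was 4.76. In pig the 5 libraries held 12, 4, 2, 0 and 10 reads, at most 3.55 RPM, and neighbouring levels in the order of height all had overlapping intervals. The pig blastocyst, at 2.68 RPM (1.46 to 4.94), stood at least 2.68-fold above the morula library with its 0 reads, short of the threshold, and overlapped the oocyte library at 3.55 RPM (2.03 to 6.21). Of the 2 coat genes, PLIN3 thus rose in cow and PLIN2 in pig. Cow PLIN3 is on chromosome 7, 20503792 to 20524334, and pig PLIN3 on chromosome 2, 73969909 to 73997400.

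ACACA encodes acetyl-CoA carboxylase 1, which makes malonyl-CoA, the committed step of fatty acid synthesis. It was one of the steadier members. Cow ACACA stood at 40.8, 55.4, 30.9, 121 and 81.5 RPM from oocyte to blastocyst, highest in the morula library. Its largest step, that into the morula, was 1.94, just short of the threshold. Pig ACACA stood at 138, 142 and 136 RPM in the first 3 libraries, with overlapping intervals, dipped to 42.3 RPM (35.6 to 50.3) in the morula library and stood at 129 RPM in the blastocyst library. The morula was thus the highest cow library and the lowest pig library for this gene. From oocyte to blastocyst the pig difference was -0.10, with a ratio of 0.935 (0.821 to 1.06), and its sign changed under another setting (up to 0.02), so no direction is given. The span on cow chromosome 19 (13752492 to 13996058, minus strand) encloses a U6atac entry with at most 4 reads, and that on pig chromosome 12 (38581451 to 38875134, minus strand) overlaps C17orf78, with at most 2 reads.

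FASN encodes fatty acid synthase, which builds palmitate from malonyl-CoA. In cow it stood at 9.94, 9.91, 5.71 and 1.80 RPM from the oocyte to the morula and at 130 RPM (124 to 136) in the blastocyst library. The cow morula library was the lowest, and the blastocyst stood 72.3-fold above it (35.0 to 180), a difference of 5.55. In pig the libraries held 1, 0, 0, 12 and 321 reads, which left the morula at 4.00 RPM (2.29 to 6.99) and the blastocyst at 86.1 RPM (77.1 to 96.0). Both species thus had their highest level by far at the blastocyst, but the pig had at most 1 read before the morula where the cow had 31 to 49. From oocyte to blastocyst the cow rise was 13.1-fold (9.84 to 17.7), a difference of 3.58. The pig difference was 6.07, with a ratio of 291 whose interval, 51.8 to 11517, is set by the single read of the oocyte library. The cow gene is on chromosome 19, 51384922 to 51403614, and the pig gene on chromosome 12, 922418 to 937560.

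SCD encodes stearoyl-CoA desaturase, which turns saturated into monounsaturated fatty acids, the form favoured for storage. It could be followed in pig only, on chromosome 14 from 111461157 to 111478031. The level was 8.88 RPM in the oocyte library, 4.59 at the 2-4 cell stage, 6.32 at the 8-16 cell stage, 54.0 in the morula and 1147 RPM (1113 to 1182) in the blastocyst. The first 3 libraries formed a low group in which neighbouring levels overlapped, and the last 2 stood apart from it and from each other. Pig SCD rose 8.54-fold (5.35 to 14.4) into the morula and 21.3-fold (18.2 to 25.02) into the blastocyst. Its rise over the whole course, 6.86 or 129-fold (90.3 to 192), was the largest difference among the members in either species.

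ACSL3 encodes an acyl-CoA synthetase of the endoplasmic reticulum and of nascent droplets, where it activates fatty acids for lipid assembly. Pig ACSL3 stood at 1849 RPM (1804 to 1896) in the oocyte library, 1093 at the 2-4 cell stage, 975 at the 8-16 cell stage, 242 in the morula and 46.4 RPM (40.0 to 53.8) in the blastocyst. In RPM the level was lower at each stage than at the one before, and no neighbouring intervals overlapped. The difference from the 2-4 cell to the 8-16 cell stage, -0.16, changed sign under another setting (up to 0.09). No direction is therefore given for that step. The fall passed the threshold at the morula (-2.01) and again at the blastocyst (-2.36), and it came to 39.9-fold (34.3 to 46.6) over the whole course, a difference of -5.29. Cow ACSL3 stood at 192, 184, 52.3, 128 and 411 RPM. Its lowest library was the 8-16 cell embryo and its highest the blastocyst, 2.14-fold (2.00 to 2.30) above the oocyte, a difference of 1.09 that did not reach the threshold. The cow span (chromosome 2, 111797170 to 111887224, plus strand) encloses an unnamed entry of 817 bases on the other strand that held 18.1, 18.02, 39.2, 27.2 and 80.5 RPM at the same stages. How strand was handled in counting is not given in the sources used here, so part of the cow ACSL3 signal is uncertain; the pig span (chromosome 15, 124741934 to 124817004) overlaps no other entry.

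DGAT1 and DGAT2 encode unrelated enzymes that both add the last acyl chain to make triacylglycerol. Cow DGAT1 held 6, 7, 6, 1 and 35 reads, from 0.256 RPM in the morula to 2.47 RPM (1.77 to 3.43) in the blastocyst, and each neighbouring pair in the order of height overlapped. The highest and the lowest did not: the cow blastocyst stood 9.62-fold (1.62 to 391) above the morula with its single read, a difference of 1.46, or 2.04 with scaling to non-mitochondrial gene reads. Pig DGAT1 held 6, 7, 13, 4 and 64 reads and stood at 17.2 RPM (13.4 to 21.9) in the blastocyst library, clear of the next highest, the 8-16 cell library at 4.11 RPM (2.40 to 7.03). Its rise from oocyte to blastocyst was 9.66-fold (4.20 to 27.3), a difference of 2.71, or 1.96 with quantile normalisation. The pig DGAT1 span (chromosome 4, 452861 to 466871) shares 5313 bases with HSF1 on the other strand, which went from 13.03 to 44.5 RPM between the same stages, so part of this rise is uncertain. Cow DGAT1 lies on chromosome 14, 1795351 to 1804562, free of such overlap.

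Cow DGAT2 held 31 reads in the oocyte library, 3 at the 2-4 cell stage, 7 at the 8-16 cell stage, 12 in the morula and 99 in the blastocyst, or 6.29, 0.676, 1.29, 3.08 and 6.98 RPM. Its fall of -2.12 from the oocyte to the 2-4 cell stage, 9.30-fold with an interval of 2.90 to 47.6, was the single member change at that step in cow, and it was -1.63 with a pseudocount of 2. The blastocyst stood 2.27-fold (1.24 to 4.54) above the morula, below the threshold, and the oocyte and blastocyst libraries overlapped (4.43 to 8.93 and 5.73 to 8.50 RPM). In pig DGAT2 had 0 reads in all 5 libraries, which allows up to 0.725 to 0.999 RPM, so the comparison between species rests on a transcript at or below 7 RPM in cow. The gene lies on cow chromosome 15 (55940757 to 55973229) and pig chromosome 9 (10032163 to 10066082).

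PNPLA2 encodes adipose triglyceride lipase, which releases the first fatty acid from stored triacylglycerol. Only the cow gene (chromosome 29, 50742386 to 50747161) could be followed. It held 2, 5, 1, 0 and 20 reads and never exceeded 1.41 RPM (0.913 to 2.18), its blastocyst value. Intervals of neighbouring levels overlapped throughout, so no order among the stages is read from it.

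CPT1A encodes the liver form of carnitine palmitoyltransferase 1, which commits long-chain fatty acids to import into mitochondria and is inhibited by malonyl-CoA, the product of ACACA. Cow CPT1A stood at 1.62, 4.28, 5.89, 31.03 and 36.9 RPM from oocyte to blastocyst. The morula and blastocyst libraries overlapped and stood above the other 3, with the rise past the threshold at the morula (a difference of 2.22, 5.27-fold, 3.54 to 8.04). Pig CPT1A had 0 reads in the oocyte library, then 3.87 RPM at the 2-4 cell stage, 111 at the 8-16 cell stage, 421 RPM (398 to 445) in the morula and 7.51 RPM (5.19 to 10.8) in the blastocyst. It was a pulse: the 8-16 cell and morula libraries stood far above the rest, and the blastocyst overlapped the 2-4 cell library. The transcript rose 28.8-fold (17.5 to 50.9) into the 8-16 cell stage and fell 56.1-fold (38.6 to 84.7) from the morula to the blastocyst, a difference of -5.63 and the largest fall at any single step among the members. Into the morula, pig CPT1A went up 3.79-fold (3.36 to 4.27; a difference of 1.91, short of the threshold) at the step where SCD rose; into the blastocyst it fell while SCD and FASN rose. The blastocyst still stood at least 8.45-fold above the oocyte, so that the 2 end points alone (2.75 in pig, 3.85 in cow) do not show the different courses. Cow CPT1A is on chromosome 29, 46822027 to 46862300, and pig CPT1A on chromosome 2, 4233109 to 4296733.

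Set out by the 4 consecutive steps, from the oocyte to the 2-4 cell stage and on to the blastocyst, more pig members changed at the later steps, as did more of all pig genes. At the first step in cow 1 member changed (DGAT2, down), where 0.374% of all compared genes changed, and at the second 1 did (PLIN2, down), against 27.2%. At the third 1 did (CPT1A, up), against 11.8%, and at the fourth 2 members changed (FASN and PLIN3, up), against 23.4%. In pig 1 changed at the first step (PLIN2, down), against 5.43%, and 1 at the second (CPT1A, up), against 4.87%. At the third pig step 3 changed (PLIN2 and SCD up, ACSL3 down), against 23.3%, and at the fourth 5 did (SCD, FASN and DGAT1 up, CPT1A and ACSL3 down), against 27.6%. The count for the first pig step became 2 under 6 alternatives, in which CPT1A, at 1.94, also passed the threshold. The members compared at the 4 steps numbered 9, 9, 7 and 9 in cow and 7, 6, 7 and 8 in pig. With at most 9 members compared, 1 member is a large share of the list, and the cow shares in particular give no reading against the background.

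**Figure D2:**
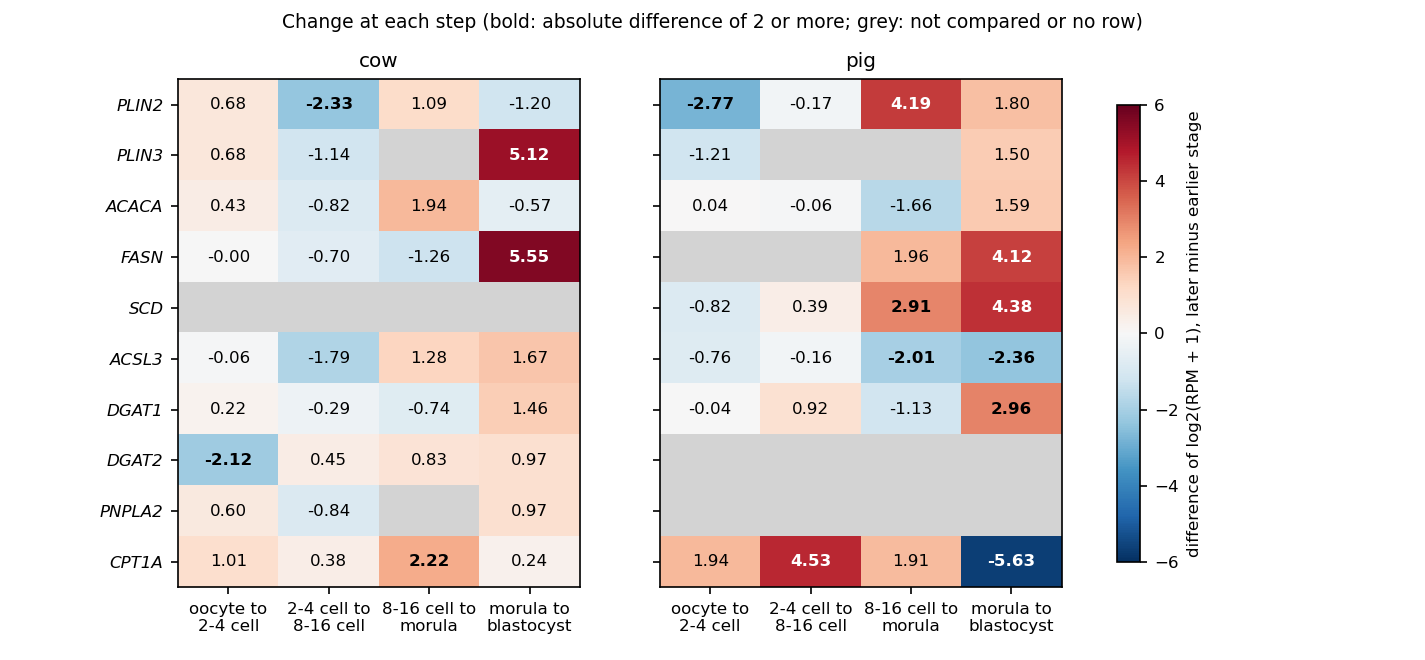
Difference of log2(RPM + 1) at each of the 4 consecutive steps, later minus earlier stage, cow at left and pig at right; bold numbers pass 2 in size, and grey cells had no entry or less than 1 RPM in both libraries. Red cells gather at the last steps in both species, and pig CPT1A turns from 4.53 to -5.63.

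The next comparison set both species side by side. Between oocyte and blastocyst, FASN and CPT1A moved past the threshold in the same direction in both, and no member did so in opposite directions. How often shared symbols in general did either is not given here. PLIN2 and ACSL3 had opposite signs with intervals clear of each other in each species: PLIN2 was -1.76 in cow and 3.05 in pig, and ACSL3 was 1.09 in cow and -5.29 in pig. The signs of all 4 values held under the 11 alternatives. With 1 library per stage the difference between species was not tested. For each gene the profile over the 5 stages, as log2(RPM + 1) centred within the species, was also compared between cow and pig. Among 6278 shared symbols with at least 10 RPM in both species the median root mean square difference was 1.12. It was 2.80 for PLIN2, more than for 97.8% of these symbols, 2.58 for ACSL3 (96.6%) and 2.53 for CPT1A (96.1%). FASN had 1.56 (75.5%) and ACACA 1.28 (60.5%). This describes these libraries, and both tables also differ in depth and in how their genes were annotated.

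**Figure D3:**
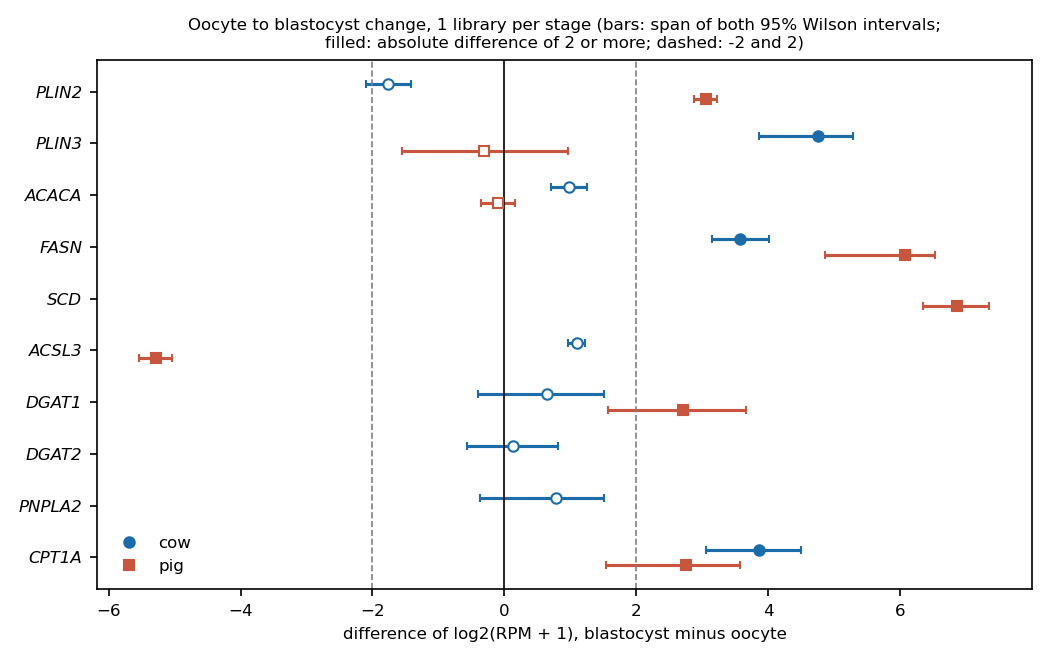
Difference of log2(RPM + 1) between blastocyst and oocyte for each gene, cow in blue circles and pig in red squares; bars run between the extremes that both 95% Wilson intervals allow, and filled symbols pass 2 in size (dashed lines). PLIN2 and ACSL3 lie on opposite sides of 0 in the 2 species, with bars clear of 0. PLIN3 and ACACA also lie on opposite sides, but their pig bars cross 0. SCD in pig lies furthest right at 6.86.

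The 3 members with the widest mean range over both species were CPT1A (6.12), FASN (5.85) and PLIN2 (4.21). For each, the shared symbols with the most similar course over the 10 libraries were found by the root mean square difference of centred log2(RPM + 1) among 6277 symbols. FASN was closest to LRRK1, a protein kinase (0.52), ATP6AP1, an accessory subunit of the vacuolar proton pump (0.55), and ST14, the membrane protease matriptase (0.55). The nearest courses to PLIN2 were those of POMP, a proteasome assembly factor (0.64), PRDX3, a mitochondrial peroxiredoxin (0.73), and DVL2, a WNT signalling scaffold (0.74). CPT1A had no such close neighbour: PLCB4, a phospholipase C (1.09), ZBTB8A, a zinc finger protein (1.13), and TASP1, a protease (1.14), came nearest.

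A wider list of 107 other lipid genes in 7 roles gave the setting; 102 were in the cow table and 91 in the pig table. Of 84 compared in cow, 20 rose and 16 fell from oocyte to blastocyst, which is 42.9% of them and near the 40.2% of all cow genes. Of 76 compared in pig, 33 rose and 13 fell, which is 60.5%, where 45.2% of all pig genes changed. The median change was 0.50 in cow (0.42 with values set to at least 3 reads) and 1.65 in pig (1.53). Of the 18 genes called in both species, 12 rose in both, 4 fell in both and 2 moved in opposite directions. No such split is given over all shared symbols, so these counts give no reading against the background. The genes that rose in both were FADS1, FADS2 and FADS3 of the desaturase family, GPAM, AGPAT4 and AGPAT5 of glycerolipid assembly, ACAA1, ACAD9 and ETFB of oxidation, the fatty acid transporter SLC27A1, the droplet protein LDAH and the coactivator PPARGC1B. PPARG, ELOVL4, ACSL5 and DDHD2 fell in both.

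By role, counts are read beside the shares over all compared genes, 21.8% upwards and 18.4% downwards in cow and 26.0% and 19.2% in pig. Of the other genes of the droplet coat and of droplet growth, 3 of 6 rose in cow (AUP1, HSD17B11 and LDAH), with a median of 2.35, and in pig 1 of 8 rose (LDAH) and 1 fell (HILPDA), with a median of 1.23. In glycerolipid and sterol ester assembly 7 of 9 compared pig genes rose and 1 fell, with a median of 3.95, the highest of the 7 roles in pig; in cow 3 of 11 rose and 1 fell, with a median of 0.75. In lipolysis all 5 compared pig genes changed, LIPE, MGLL, ABHD5 and PNPLA3 upwards and DDHD2 downwards (-3.28). Of the 5 cow genes DDHD2 (-3.29) and LIPA fell and none rose; PNPLA3 was compared in pig only and LIPA in cow only. Genes of mitochondrial and peroxisomal oxidation rose in 4 of 18 in cow, near the share of all genes, and in 7 of 17 in pig, with DECR1 in pig the single one to fall. Among elongases, desaturases and other synthesis genes 3 of 16 rose and 3 fell in cow, and 6 of 14 rose and 3 fell in pig. Uptake, binding and activation held 5 that rose and 3 that fell among 15 in cow, and 3 that rose and 5 that fell among 13 in pig. Transcriptional regulators fell in 7 of 13 in cow, with 2 rising, and rose in 5 of 10 in pig, with 1 falling. None of these differences between species was tested.

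**Figure D4:**
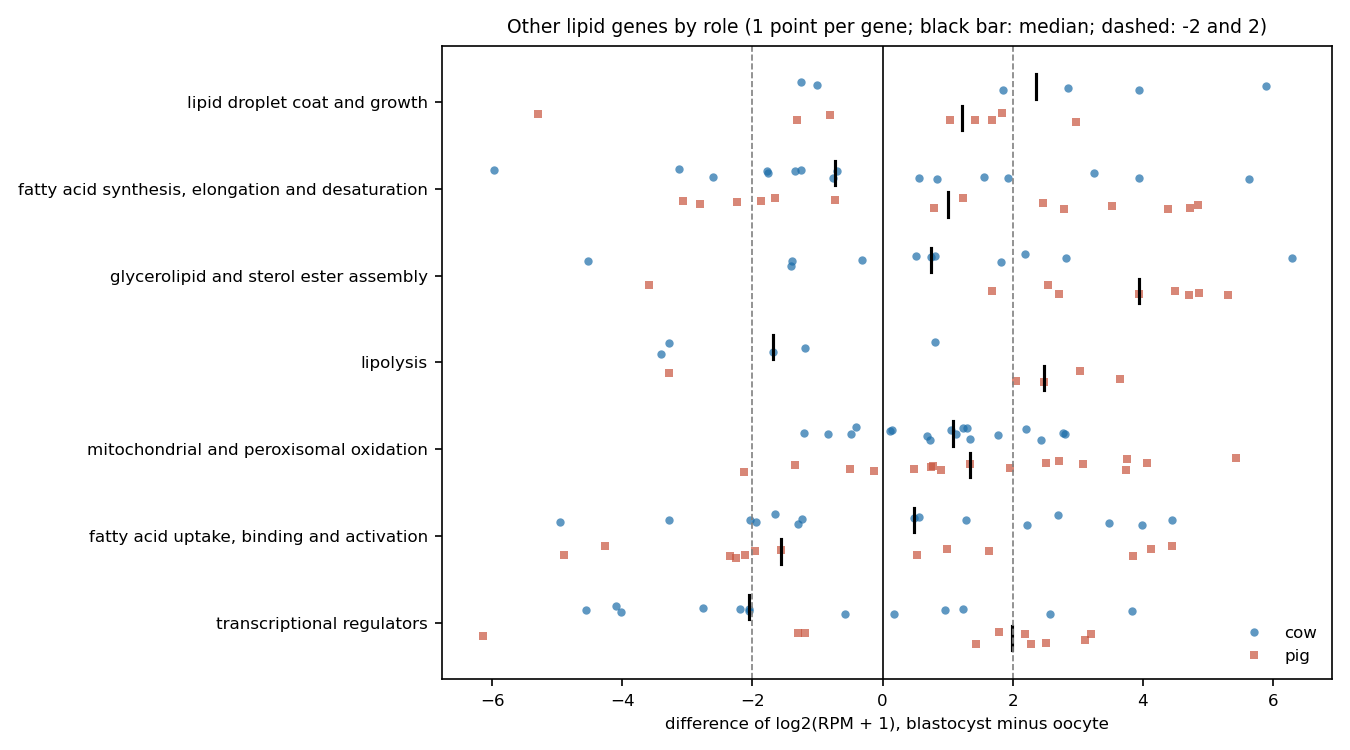
Difference of log2(RPM + 1) between blastocyst and oocyte for the other lipid genes, 1 point per compared gene, grouped by role, cow in blue circles and pig in red squares; black bars are medians and dashed lines mark -2 and 2. The pig median of glycerolipid assembly is 3.95 and that of the cow 0.75, and regulators lie at -2.05 in cow and 1.99 in pig.

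The 4 genes of the wider list that rose most in cow were AGPAT4, an acyltransferase, from 0 reads to 91.5 RPM (at least 150-fold), HSD17B11, a droplet-associated dehydrogenase, from 1.62 to 155 RPM, the desaturase FADS2, which went from 0 reads to a level of 58.0 RPM (at least 95.2-fold), and the acyl-CoA synthetase ACSL6, from 5.48 to 140 RPM. HSD17B11 stood at 37.6 RPM at the 8-16 cell stage already, while FADS2 held at most 3 reads in any library before the blastocyst. The 4 that fell most in cow were ELOVL4, an elongase of very long chains, from 313 to 4.02 RPM, the fatty acid receptor CD36, from 34.7 RPM to 2 reads, PPARG, a nuclear receptor for fatty acid derivatives, from 37.7 to 0.635 RPM, and MOGAT1, a monoacylglycerol acyltransferase, from 23.7 RPM to 1 read. PPARG and MOGAT1 were at 3.13 and 3.68 RPM at the cow 8-16 cell stage, next to 47.5 and 29.1 RPM at the 2-4 cell stage.

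In pig the 4 that rose most were ETFB, a subunit of the electron transfer flavoprotein that takes electrons from fatty acid oxidation, from 0 reads to 53.6 RPM (at least 60.4-fold), the glycerol-3-phosphate acyltransferases GPAM, from 6.22 to 286 RPM, and GPAT3, from 2 reads to 45.6 RPM, and the desaturase FADS1, from 4.74 to 164 RPM. GPAM was at 35.97 RPM in the pig morula, whereas FADS1 had 2 reads there. In cow GPAT3 stood at 61.7 RPM in the oocyte and 49.6 RPM in the blastocyst. The 4 that fell most in pig were PPARG, from 87.04 RPM to 0 reads (at least 108-fold), HILPDA, a droplet protein that inhibits PNPLA2, from 90.9 to 1.34 RPM, the lipoprotein receptor VLDLR, from 45.0 RPM to 2 reads, and ACSL4, an acyl-CoA synthetase for polyunsaturated chains, from 22.8 RPM to 0 reads (at least 28.3-fold). The span of VLDLR in pig overlaps another entry. HILPDA had already stood at 28.03 RPM at the pig 2-4 cell stage and 17.4 RPM at the 8-16 cell stage. The pair that moved in opposite directions was ACSL4, from 10.5 to 52.8 RPM in cow, and INSIG1, a sterol-regulated brake on lipid synthesis, which fell from 82.6 to 4.16 RPM in cow but rose from 20.1 to 102 RPM in pig.

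Markers of cumulus cells, the somatic cells around the oocyte, were read beside the oocyte levels. In cow 10 of 19 such markers had at least 1 RPM in the oocyte library; all 19 summed to 479 RPM there, 444 at the 2-4 cell stage and between 126 and 132 RPM in the later libraries. STAR (157 RPM) and HAS2 led the list in the oocyte library, and 7 markers (AMH, AMHR2, INHA, CYP11A1, FST, COL3A1 and FOXL2) had 0 reads. In pig 6 of 15 had at least 1 RPM in the oocyte library, with sums of 168, 147, 313, 499 and 354 RPM along the stages, and 6 (TNFAIP6, INHA, INHBA, CYP11A1, NR5A2 and COL3A1) had 0 reads in the oocyte library, where VCAN (101 RPM) and STAR led. The 14 cow markers of trophectoderm and blastocyst went from 156 to 4057 RPM, and the 15 pig markers from 42.3 to 9323 RPM, together with the members that rose. The part of cell composition in the changes was not tested.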

How the data were processed

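The deposited tables hold log2 values, 1 per gene and stage, made by the authors; per the submitters' processing notes the tools included Trim Galore 0.6.4 and HISAT2 2.1.0, with the builds UMD3.1 (cow) and Sscrofa11.1 (pig). The counting method, annotation and strand handling are not given in the sources used here. Per the labels' protocols, RNA was isolated with a PicoPure kit, amplified with Ovation RNA-Seq and given 8 cycles of PCR. In each column the second lowest value is 1 read, all higher values are whole multiples of it (within 0.02 of a read, or 0.001% of the value), and genes without reads stand at 0.9 of a read. The values are thus log2 RPM, from which reads and totals were recovered.

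Changes were computed within a species as differences of log2(RPM + 1), with 0 reads at 0.9 of a read as deposited. Ratios carry exact 95% intervals from the split of reads between both libraries; against 0 reads they are bounds at 3 reads per library. Scripts used Python 3.11.15, numpy 2.4.6, pandas 2.3.3 and scipy 1.17.1 and were tested on simulated counts. Members and lists were chosen with earlier results of these data known. The text names all members, and in each species the 4 genes of the wider list that rose and the 4 that fell most. For the 3 members of widest mean range, the 3 shared symbols closest in course are named. Other genes, such as those called in both species or singled out in a role, were named after their values were seen. The entry with the highest mean stood for a repeated symbol. Alternatives changed the scaling, pseudocount, minimum, threshold, depth and handling of repeated symbols and of 0 reads.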

Additional observations from a re-analysis of the deposited data

Results flagged for a closer look

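PLIN2 and ACSL3 had differences of opposite sign in the 2 species from oocyte to blastocyst, with counting intervals of the end points that did not overlap in either species. The difference for PLIN2 was -1.76 in cow but 3.05 in pig on the log2(RPM + 1) scale. That for ACSL3 was 1.09 in cow but -5.29 in pig. In cow neither value reached the threshold of 2. The difference between the species was not tested, since each stage had 1 library.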

How the results depend on the processing

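Across 11 alternatives none of the 24 member changes past the threshold changed sign. Of 55 smaller ones 5 did: pig ACACA and cow DGAT2 from oocyte to blastocyst, pig DGAT1 at the first step, and pig ACSL3 and pig SCD at the second. The count of members changed at the first pig step rose from 1 to 2 with median-of-ratios scaling, quantile normalisation, scaling to non-mitochondrial gene reads, a pseudocount of 0.5, thinning to equal depth, and 0 reads written as 0 (chosen after seeing the data). At the second cow step it fell from 1 to 0 with median-of-ratios scaling and with quantile normalisation, and at the first cow step from 1 to 0 with a pseudocount of 2. A threshold of 1 gave 2, 3, 5 and 5 members at the cow steps and 5 from oocyte to blastocyst, 3, 7 and 8 at the first, the third and the fourth pig step, and 63 genes in place of 36 of the wider cow list. Shares over all genes are given at the threshold of 2 only, so these counts are not read against a background. The minimum RPM and summing of repeated symbols changed no member call. Scaling moved the median change of all genes from oocyte to blastocyst by up to 0.41 in cow (non-mitochondrial gene reads) and by -0.41 in pig (quantile normalisation), so smaller changes are read only relative to this shift. No paired analysis was possible because each group had 1 library; for the same reason no library could be left out.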
